A study of Homo sapiens with 4 samples.

Results

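The colony-stimulating factors and a group of further cytokines that airway epithelium can make were followed through the response of bronchial epithelial cells to lipopolysaccharide (LPS). The 8 genes were taken by symbol, without a threshold on their values, and were CSF1, CSF2, CSF3, IL32, IL7, IL15, TSLP and IL23A, out of 24424 gene symbols in the count tables. The cells were BEAS-2B, an established human cell line from bronchial epithelium, which the labels describe as wild type, and their RNA was sequenced. The study asked how peptides built on the first PDZ domain of the tight junction protein ZO-1 act on LPS inflammation. Control cells had no treatment, and LPS cells had LPS for 2 hr without a peptide. WT PDZ+LPS cells had the wild-type PDZ peptide for 24 hr and then LPS for 2 hr, and mut PDZ+LPS cells had the mutant PDZ peptide for the same times. Both peptides carried a TAT sequence for cell entry and a fluorescein tag, and the mutant differed by the exchange of a neighbouring pair of glycines for alanines. No library had a peptide without LPS, so the effect of a peptide alone could not be separated from its effect during LPS.

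Colony-stimulating factors are secreted proteins that keep myeloid cells alive and drive their growth and maturation. CSF1 (M-CSF) acts on monocytes and macrophages, CSF2 (GM-CSF) on granulocytes, macrophages and dendritic cells, and CSF3 (G-CSF) on neutrophils. Epithelial cells make these factors after bacterial products engage Toll-like receptors and NF-kB, and their mRNAs are held short-lived by AU-rich elements in the 3′ untranslated region. Of the other genes, IL7 and IL15 sustain lymphocytes, TSLP (thymic stromal lymphopoietin) acts on dendritic cells and innate lymphoid cells, IL32 is a proinflammatory cytokine of epithelial and lymphoid cells, and IL23A encodes the p19 subunit of IL-23.

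Each condition had 1 library, with 24823347 counts in Control and 25155647 in LPS, and 23446600 with WT PDZ+LPS and 19682929 with mut PDZ+LPS. No difference below therefore has a replicate check, no p-value is given, and the 95% intervals are exact (Clopper-Pearson) intervals that compare 2 libraries and cover counting error only. Counts were divided by geometric size factors to give normalized counts. A gene was called higher or lower where its log2 fold change, with 1 normalized count added, reached 2-fold and at least one of the 2 libraries had 16 normalized counts or more. The mut PDZ+LPS library stood apart from the others by transcript length. Its values for CSF1, CSF2, CSF3 and IL32 are given with and without that trend further below. All 8 epithelial markers examined (KRT5, KRT8, KRT14, KRT18, KRT19, EPCAM, CDH1, TP63) averaged 16 normalized counts or more, and their summed normalized count was 33209 in Control and 34655 in LPS, and 29455 with WT PDZ+LPS and 42773 with mut PDZ+LPS. KRT8 and KRT18 made up most of the sum, with 21612 and 18874 normalized counts in mut PDZ+LPS. Against LPS, 6 markers were higher in mut PDZ+LPS and 2 were lower, CDH1 (362 against 569) and TP63 (59.9 against 98.8). With the length and GC trend removed, 4 were higher and 4 lower, and the median log2 fold change was -0.0076. The order of the sum among the LPS-treated libraries is also that of CSF1 and CSF3 below, and its part in those differences was not tested. TP63 was called higher in LPS/Control (105 counts against 46) and KRT19 lower in WT PDZ+LPS/Control (87 counts against 216). Of 8 haematopoietic markers only CD14 and CD68 reached that average, with a summed level of the list between 731 and 897, and PTPRC, MS4A1 and TYROBP had no count in any library. Of 4 endothelial markers only KDR reached it, and of 6 fibroblast markers only COL1A1 and PDGFRB. In RNA from a whole culture, fewer cells that make a transcript and less transcript per cell cannot be told apart.

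LPS was accompanied by higher CSF1, CSF2, CSF3 and IL32, while IL7, IL15, IL23A and TSLP stayed at low counts and were not called. In LPS/Control, 4 of the 8 genes were called higher and 0 lower, against 3.46% of all 13277 genes with enough counts called higher and 1.41% called lower. The 8 genes were chosen with earlier results of these data known, so this count is a description and not a test. Of the 8 genes, 5 had enough counts to be called in LPS/Control, and 6 in each of the other comparisons below. The median log2 fold change over all 8 genes was 1.44. Over the 5 of them that averaged 16 normalized counts or more it was 2.77, beside -0.0010 over all 13072 such genes. Together the 8 genes took 7287 raw counts in Control and 39207 in LPS. CSF1 and CSF3 made up nearly all of them, and the shares of the pair changed. CSF1 held 93.4% of the summed counts in Control and 64.8% in LPS, and CSF3 held 4.38% and 32.6%.

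CSF1, the macrophage growth factor, was the most abundant of these transcripts per kb of length before LPS. Its normalized count was 5926 in Control and 23899 in LPS, and 21753 with WT PDZ+LPS and 26114 with mut PDZ+LPS. All 3 LPS-treated libraries were well above Control and lay within a narrow span of each other. The fold in LPS/Control was 4.03 (95% interval 3.93 to 4.14), and 169 genes had a higher log2 fold change.

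CSF3, the neutrophil growth factor, had a normalized count of 278 in Control and 12041 in LPS, and 10997 with WT PDZ+LPS and 16392 with mut PDZ+LPS. It was therefore present before LPS, and the mut PDZ+LPS library was the highest. LPS/Control was 43.4-fold (38.8 to 48.6), with 23 genes above it. The number of CSF3 counts per CSF1 count within a library, a ratio that the size factors do not affect, went from 0.0468 (0.0417 to 0.0524) in Control to 0.504 (0.493 to 0.515) in LPS.

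CSF2, the granulocyte-macrophage factor, was all but absent from Control, with a single count. The raw counts were 1 in Control and 274 in LPS, and 263 with WT PDZ+LPS and 308 with mut PDZ+LPS, which gave normalized counts of 0.870, 258, 266 and 362. The ratio in LPS/Control was 296, and because it rests on 1 count its interval ran from 52.7 to 11740. Among all 13277 genes 7 had a higher log2 fold change, but with a pseudocount of 5 in place of 1 that of CSF2 went from 7.11 to 5.48, next to 5.41 for CSF3. Per CSF3 count there were 0.0214 CSF2 counts (0.0189 to 0.0241) in LPS, 0.0242 (0.0213 to 0.0273) with WT PDZ+LPS and 0.0221 (0.0197 to 0.0247) with mut PDZ+LPS, and these 3 intervals overlapped.

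IL32 had 91.4 normalized counts in Control and 628 in LPS, and 614 with WT PDZ+LPS and 868 with mut PDZ+LPS. The mut PDZ+LPS library was the highest, and Control was far below the others. LPS/Control was 6.88-fold (5.59 to 8.53), and 99 genes had a higher log2 fold change. GENCODE 29 lists 30 protein-coding transcripts of IL32 against 1 for CSF2, and counts per symbol do not tell them apart.

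**Figure D1:**
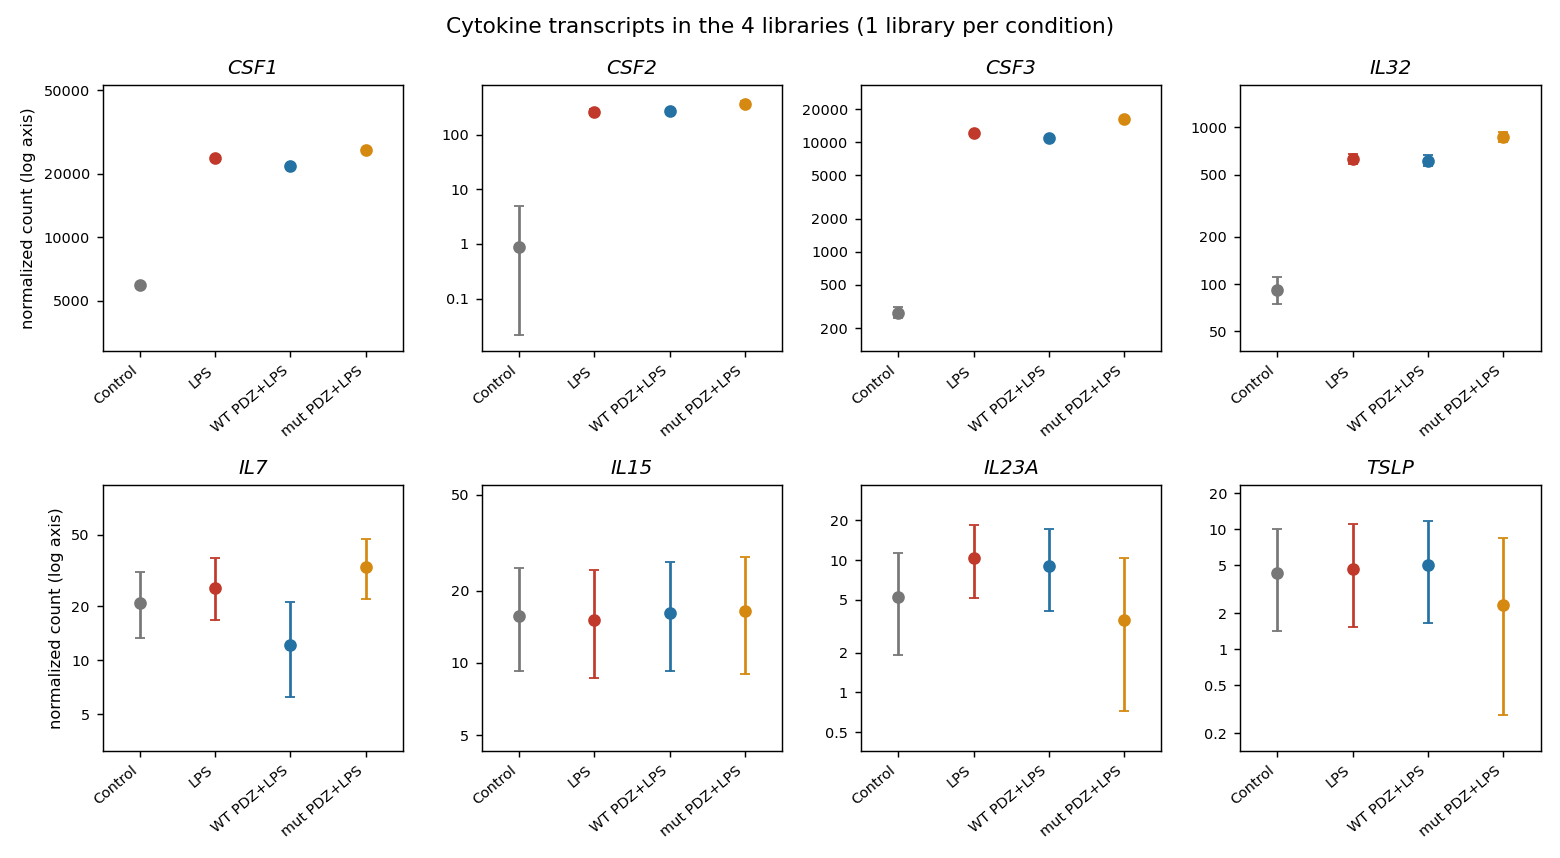
Normalized counts (log axes, a separate range in each panel) of the 8 cytokine genes in the 4 libraries, with 1 point per library and 95% counting intervals as bars. CSF1, CSF2, CSF3 and IL32 in the upper row were higher in all 3 LPS-treated libraries than in Control. The bars of IL15, IL23A and TSLP in the lower row overlapped across all 4 libraries.

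Promoter and 3′ untranslated sequences were examined as features that the choice of genes did not use. RefSeq promoter windows (GRCh38.p14, 250 bases before to 50 after a transcription start) were at hand for CSF2, IL32, IL23A and TSLP. They were searched on both strands for 4 motifs: the kappaB consensus, the pattern GGGANNNNCC that overlaps with it, the CK-1 core GAGATTCC and the AP-1 pattern TGANTCA. The CSF2 and IL32 windows are printed because these genes were called higher with LPS, and the IL23A window because that gene holds the same kind of match and stayed near the counting limit. Capitals mark the motif matches, and all 3 windows read along the plus strand.
CSF2 chr5:132073539-132073838: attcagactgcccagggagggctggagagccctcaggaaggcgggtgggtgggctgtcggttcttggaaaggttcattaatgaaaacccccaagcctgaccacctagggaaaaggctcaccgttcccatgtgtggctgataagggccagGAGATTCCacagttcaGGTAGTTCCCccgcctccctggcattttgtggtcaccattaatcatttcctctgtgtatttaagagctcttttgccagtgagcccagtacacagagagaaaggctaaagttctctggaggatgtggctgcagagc
IL32 chr16:3065153-3065452: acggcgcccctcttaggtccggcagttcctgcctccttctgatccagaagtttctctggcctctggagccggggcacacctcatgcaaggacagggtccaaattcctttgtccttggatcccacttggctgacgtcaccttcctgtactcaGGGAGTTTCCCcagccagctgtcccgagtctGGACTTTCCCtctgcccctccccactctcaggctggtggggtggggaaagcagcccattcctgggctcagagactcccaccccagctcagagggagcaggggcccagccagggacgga
IL23A chr12:56338634-56338933: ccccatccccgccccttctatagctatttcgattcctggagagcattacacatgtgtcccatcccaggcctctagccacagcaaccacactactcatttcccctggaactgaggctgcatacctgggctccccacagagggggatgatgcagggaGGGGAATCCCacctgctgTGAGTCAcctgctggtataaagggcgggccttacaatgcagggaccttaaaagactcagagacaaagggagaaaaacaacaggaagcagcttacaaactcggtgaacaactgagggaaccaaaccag
In the CSF2 window the capitals are the CK-1 core, starting at -101 from the transcription start, and a match to GGGANNNNCC on the minus strand at -85. A CK-1 core was in 0.869% of 35116 promoter windows and GGGANNNNCC in 25.6%, and the kappaB consensus, present in 11.3% of windows, had no match there. The IL32 window held a pair of overlapping matches to the kappaB consensus and a further match to GGGANNNNCC. A second IL32 window, at chr16:3065534-3065833, held none of the 4 motifs. The IL23A window held a kappaB consensus at -95 and an AP-1 match at -77. The AP-1 pattern by itself was found in 7.71% of windows. Of 3 TSLP windows 1 held 2 kappaB consensus matches. A match describes the letters of these windows and not occupancy by a factor.

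AU-rich elements differed among the 8 genes. The pentamer ATTTA, the core of these elements, was counted in the 3′ untranslated region of the longest protein-coding transcript of each gene. The richest stretches of CSF2, CSF3, CSF1 and IL23A are given as DNA with the pentamers in capitals, since they show overlapping copies in CSF2 and separated copies in the others.
CSF2: ttttaaaatATTTATTTATTTATTTATTTA
CSF3: tcccatgtATTTAtctctATTTAatATTTA
CSF1: tttatataaagtcATTTAaatatctATTTA
IL23A: cagtttggggaggattATTTAttgtATTTA
CSF2 had 8 pentamers in 318 nt, more than 99.9% of 1478 untranslated regions within 20% of its length, and 3 copies of the nonamer TTATTTATT, which 1.76% of those regions hold at all. CSF3 had 7 pentamers in 854 nt, more than 98% of regions of similar length, and no nonamer. CSF1 had 4 pentamers in 2154 nt, which is the median for its length. IL23A, which had too few counts to be called, had 4 pentamers and 1 nonamer in 306 nt. That is more pentamers than 98.3% of regions of similar length. IL7 had 4 pentamers, TSLP 3 and IL15 2. IL32, which was called higher with LPS as CSF2 and CSF3 were, had none in 373 nt. IL15, IL23A and TSLP had too few counts in LPS/Control to be called, so their pentamers could not be set against a call. IL7, with 4 pentamers, had 27 counts in LPS against 24 in Control and was not called. A link between pentamers and calls was not tested.

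The peptide libraries kept the difference from Control in the same 4 genes. In WT PDZ+LPS/Control 4 of the 8 genes were called higher and 0 lower, against 3.28% and 1.42% of 13284 genes. The folds were 3.67 (3.57 to 3.77) for CSF1, 305 (54.3 to 12098) for CSF2, 39.6 (35.4 to 44.4) for CSF3 and 6.72 (5.45 to 8.35) for IL32. In mut PDZ+LPS/Control 4 genes were again called higher and 0 lower, against 5.13% and 2.96% of 13434 genes. CSF1 was 4.41-fold (4.29 to 4.53) higher, CSF2 416-fold (74.1 to 16477), CSF3 59.0-fold (52.8 to 66.2) and IL32 9.50-fold (7.74 to 11.8). With the length and GC trend removed, the mut PDZ+LPS/Control log2 fold change was 5.54 for CSF3 in place of 5.88. It was 2.89 for IL32 in place of 3.23, 7.20 for CSF2 in place of 7.60, and 2.14 for CSF1 before and after. With the trend removed, LPS/Control was at 5.48 for CSF3, 2.84 for IL32, 7.20 for CSF2 and 2.00 for CSF1. These comparisons share the Control library, and in CSF2 they share its single count. The median log2 fold change over the 8 genes was 1.29 in WT PDZ+LPS/Control, beside 0.010 over all genes, and 1.39 in mut PDZ+LPS/Control, beside -0.018.

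**Figure D2:**
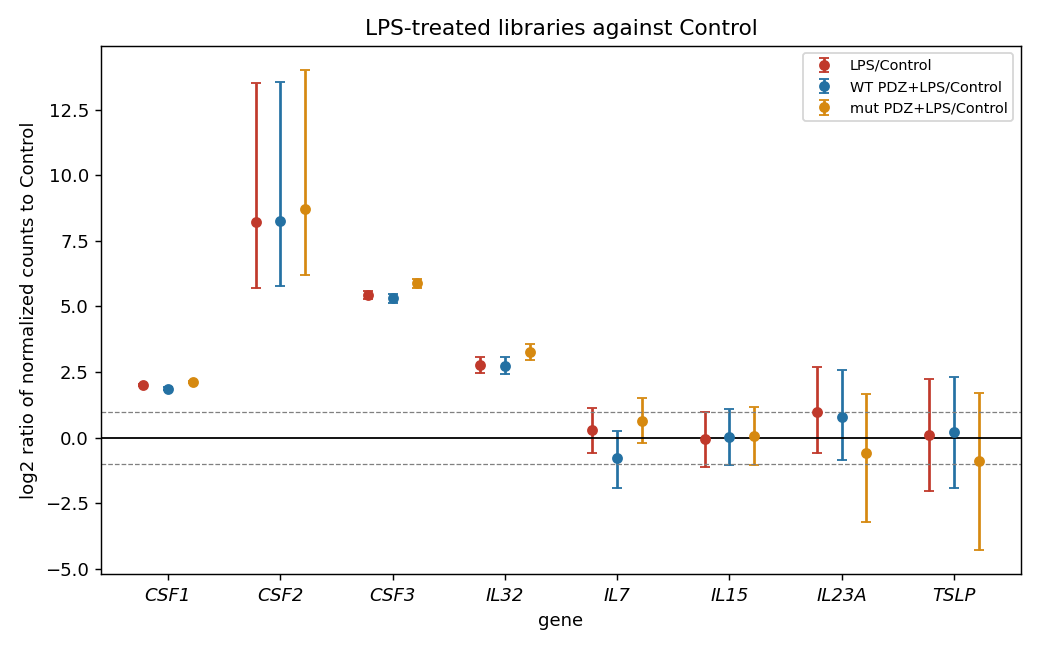
The log2 ratio of normalized counts to Control for the 8 genes in LPS and in both peptide libraries, with 95% counting intervals as bars and dashed lines at 2-fold. CSF1, CSF2, CSF3 and IL32 lay above the upper dashed line in all 3 comparisons, and the bars of IL7, IL15, IL23A and TSLP crossed 0.

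Against LPS alone, the WT PDZ+LPS library had slightly less CSF1 and CSF3 and closely similar CSF2 and IL32. CSF1 was 0.910 of the LPS level (0.894 to 0.927) and CSF3 0.913 (0.890 to 0.937), and both intervals lay below 1. CSF2 was at 1.03 (0.867 to 1.22) and IL32 at 0.977 (0.874 to 1.09), so for these genes the counts could not tell the libraries apart. A difference of this size between single libraries may be no larger than that between 2 cultures treated alike, which these data cannot show. In WT PDZ+LPS/LPS 0 of the 8 genes were called higher and 1, IL7, was called lower, against 0.635% and 0.733% of 13236 genes. The median log2 fold change of the 8 genes was -0.082. Over the 5 that averaged 16 normalized counts or more it was -0.131, beside 0.0075 over all 13072 such genes. The number of CSF3 counts per CSF1 count was 0.506 (0.494 to 0.517), next to 0.504 in LPS.

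The mut PDZ+LPS library had more of all 4 LPS-responsive cytokines than the LPS library. CSF1 was 1.09-fold higher (1.07 to 1.11), CSF3 1.36-fold (1.33 to 1.39), CSF2 1.40-fold (1.19 to 1.66) and IL32 1.38-fold (1.24 to 1.54). None reached 2-fold, so in mut PDZ+LPS/LPS 0 of the 8 genes were called higher and 0 lower, against 2.05% and 1.9% of 13378 genes. The median log2 fold change of the 8 genes was 0.24. Over the 5 that averaged 16 normalized counts or more it was 0.445, beside -0.023 over all 13072 such genes. CSF3 counts per CSF1 count stood at 0.628 (0.615 to 0.641), above the ratio in the other LPS-treated libraries. By the longest transcripts this ratio sets a short transcript against a long one, and the length trend described next was not removed from it.

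Transcript length moved with this difference. Across 12106 genes, which are not independent replicates, Spearman's rho between the length of the longest protein-coding transcript and the log2 fold change was -0.605 for mut PDZ+LPS/LPS but 0.0749 for WT PDZ+LPS/LPS. In 20 bins of length, the mut PDZ+LPS/LPS median was 0.47 on the log2 scale among the shortest transcripts and -0.51 among the longest. CSF2 (787 nt), IL32 (1272 nt) and CSF3 (1673 nt) are short, and CSF1 (4210 nt) is long. With the trend over length and GC content removed, the mut PDZ+LPS/LPS log2 fold change went from 0.49 to 0.016 for CSF2, from 0.45 to 0.032 for CSF3 and from 0.47 to 0.043 for IL32. CSF1 was at 0.13 both before and after, but at -0.12 when the mean length of its 8 protein-coding transcripts replaced the longest, so its direction depended on the transcript assumed. The direction of CSF3 relative to CSF1 depended on it too, with CSF3 at 0.032 and CSF1 at 0.13 by the longest transcript, and CSF3 at 0.11 and CSF1 at -0.12 by the mean length. Whether the length trend arose in the cells or in the making of the library cannot be told apart with 1 library per condition.

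**Figure D3:**
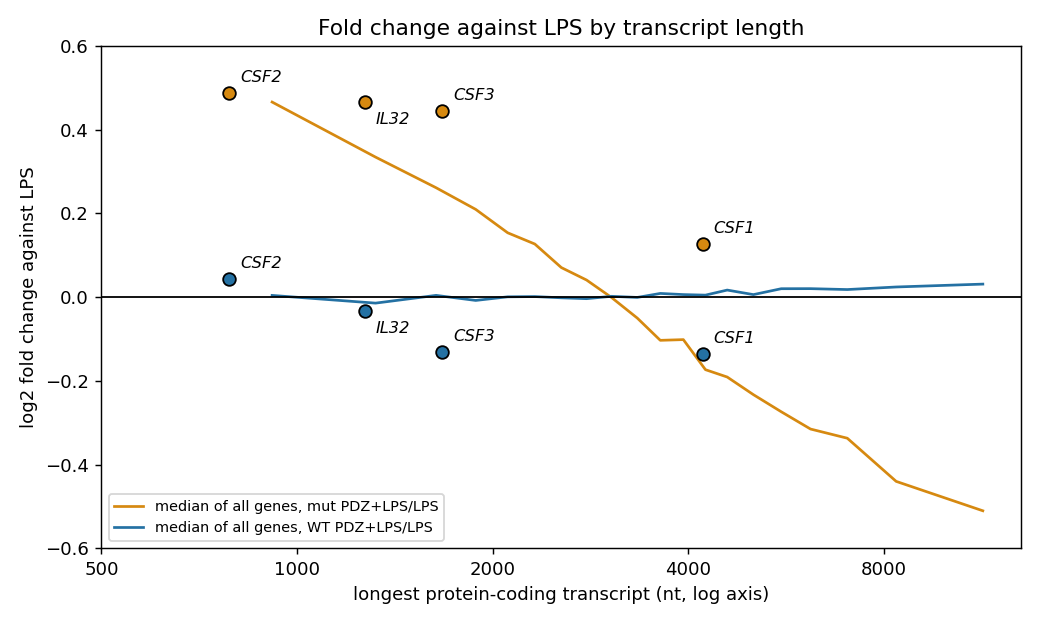
The log2 fold change against LPS by the length of the longest protein-coding transcript (log axis), with lines for the median of all genes in 20 bins of length and points for CSF1, CSF2, CSF3 and IL32. The line for mut PDZ+LPS falls from 0.47 to -0.51 with length and that for WT PDZ+LPS stays near 0, while the mut PDZ+LPS points of CSF1, CSF3 and IL32 lie above their line and that of CSF2 lies to the left of its start.

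**Figure D4:**
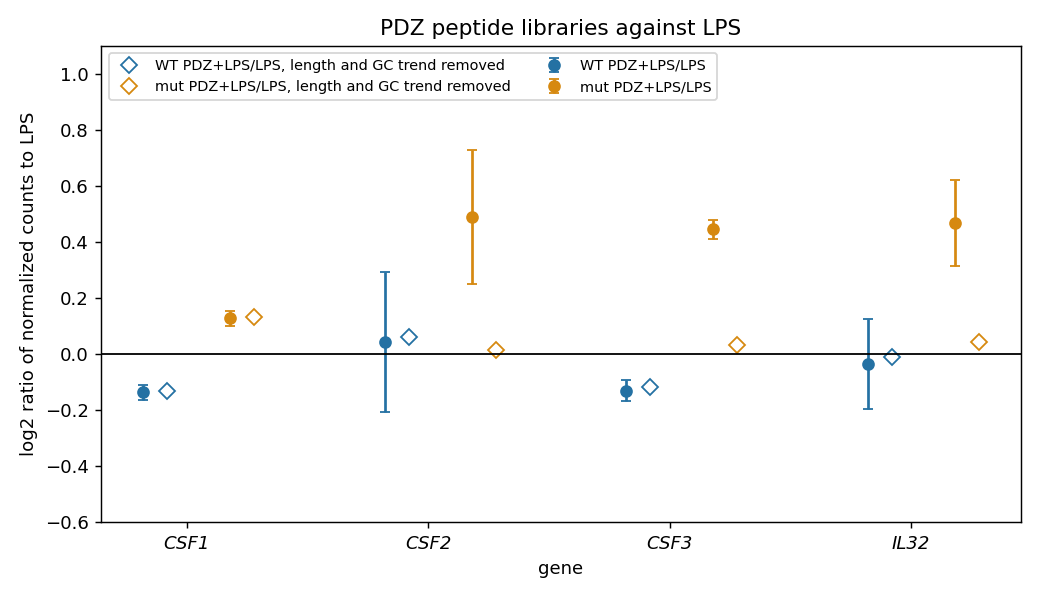
The log2 ratio of normalized counts to LPS for CSF1, CSF2, CSF3 and IL32 in both peptide libraries, with 95% counting intervals as bars on the filled points and open diamonds for the values after the trend over length and GC content was removed. The mut PDZ+LPS values of CSF2, CSF3 and IL32 fall from between 0.45 and 0.49 to between 0.016 and 0.043, whereas those of WT PDZ+LPS hardly move.

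Compared with each other, the 2 peptide libraries differed in the same sense. The mut PDZ peptide library exceeded the WT PDZ peptide library 1.20-fold in CSF1 (1.18 to 1.22), 1.49-fold in CSF3 (1.45 to 1.53), 1.36-fold in CSF2 (1.15 to 1.61) and 1.41-fold in IL32 (1.27 to 1.58). In mut PDZ+LPS/WT PDZ+LPS 1 of the 8 genes, IL7, was called higher and 0 lower, against 2.12% and 2.14% of 13372 genes. With the trend over length and GC content removed, the log2 fold change was -0.046 for CSF2 in place of 0.45, 0.15 for CSF3 in place of 0.58, and 0.046 for IL32 in place of 0.50. CSF1 stayed at 0.26 with the longest transcript and came to 0.0098 with the mean length. The difference between the peptide libraries in CSF1 and CSF3 depended on how the length trend was treated. For CSF1 it all but vanished with the mean length. The peptides were each seen in 1 library, so the difference between them could not be set against that between replicates.

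IL7, a survival factor for lymphocytes, was the only one of the 8 genes called between LPS-treated libraries, and it was called on few reads. It had 24 counts in Control and 27 in LPS, and 12 with WT PDZ+LPS and 28 with mut PDZ+LPS, or 20.9, 25.4, 12.1 and 32.9 normalized counts. The WT PDZ+LPS library was the lowest of the 4. Its ratio to LPS was 0.477 (0.220 to 0.974), just past the 2-fold limit with a log2 fold change of -1.01. The call was lost with a pseudocount of 5, which gave -0.83, with a rule of 64 normalized counts and at a 3-fold threshold. Its ratio to Control was 0.580 (0.264 to 1.21), an interval that includes 1. The mut PDZ+LPS library was 2.72-fold (1.34 to 5.86) above WT PDZ+LPS, and the log2 fold change of 1.37 became 1.23 with the trend over length and GC content removed. LPS/Control was 1.22-fold (0.675 to 2.20), which was not a detectable difference at this depth. An exon of IL7 overlaps ZC2HC1A on the opposite strand, and that gene had between 216 and 298 counts per library, so reads assigned without strand could enter either gene.

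IL15, which supports natural killer cells and memory T cells, had 18, 16, 16 and 14 counts in Control, in LPS, with WT PDZ and with mut PDZ. The normalized counts lay between 15.1 and 16.4, the narrowest span among these genes. LPS/Control was 0.961 with an interval from 0.458 to 2.00, so a difference within those bounds was not detectable at this depth. IL23A had 6, 11, 9 and 3 counts in the same order, and LPS/Control was 1.98 (0.672 to 6.53). Its mut PDZ+LPS library was at 0.341 of LPS (0.061 to 1.29). TSLP had 5 counts in each library but mut PDZ+LPS, which had 2, and its LPS/Control ratio of 1.08 had an interval from 0.249 to 4.70. IL15, IL23A and TSLP were thus detected, at a depth that could show only large differences.

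Levels were compared between genes as normalized counts per kb of the longest protein-coding transcript. In Control the order was CSF1 at 1408, CSF3 at 166, IL32 at 71.8 and IL7 at 10.1 per kb, followed by IL23A at 4.99, IL15 at 2.60, TSLP at 1.66 and CSF2 at 1.11. The neighbours from IL7 downward had overlapping intervals. In LPS the order on this scale was CSF3 at 7197, CSF1 at 5677, IL32 at 494 and CSF2 at 328 per kb, so CSF3 passed CSF1 and CSF2 went from the last place to the fourth. The remaining levels in LPS were 12.2 for IL7, 9.89 for IL23A, 2.50 for IL15 and 1.79 for TSLP, with overlapping intervals between IL7 and IL23A and between IL15 and TSLP. WT PDZ+LPS and mut PDZ+LPS kept the first 4 places in this order, with CSF3 at 6573 and 9798 per kb and CSF1 at 5167 and 6203. The order of CSF3 and CSF1 rests on the transcript assumed, since per kb of mean transcript length CSF1 stood at 16100 and CSF3 at 9861 normalized counts in LPS.

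The receptors for these cytokines were for the most part at or near a count of 0. A list of 13 genes was examined, made up of receptor chains, the partner subunit IL12B and the ligand IL34. Of these, CSF3R, IL7R and IL15RA averaged 16 normalized counts or more. In LPS/Control 4 of the 13 had enough counts in a library to be called. The receptor chain IL7R and the ligand IL34, 2 genes, were called higher and 0 lower, against 3.46% and 1.41% of all genes. CSF3R, the receptor of CSF3, had 214 normalized counts in Control and 211 in LPS, and 169 with WT PDZ+LPS and 262 with mut PDZ+LPS. The receptor did not share the LPS/Control difference of its ligand. Between the LPS-treated libraries the normalized counts of both were lowest with WT PDZ and highest with mut PDZ. For CSF3 the mut PDZ+LPS/LPS log2 fold change went from 0.45 to 0.032 with the trend over length and GC content removed. The LPS/Control ratio of CSF3R was 0.984 (0.818 to 1.18), WT PDZ+LPS/LPS was 0.800 (0.651 to 0.982) and mut PDZ+LPS/LPS was 1.24, with a lower bound of 1.03. CSF3 counts per CSF3R count went from 1.30 in Control to 57.1 in LPS.

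Of the ligands that share the receptor chain IL7R, IL7 was not called against Control and TSLP had too few counts to be called. IL7R was called higher in all 3 LPS-treated libraries. It had 30.5 normalized counts in Control and 377 in LPS, and 433 with WT PDZ+LPS and 261 with mut PDZ+LPS. LPS/Control was 12.4-fold (8.76 to 18.0), WT PDZ+LPS/Control 14.2-fold (10.1 to 20.7) and mut PDZ+LPS/Control 8.56-fold (5.98 to 12.6). The mut PDZ+LPS library was at 0.692 of LPS (0.584 to 0.817), and the log2 fold change of -0.53 became -0.31 with the trend over length and GC content removed. IL15RA, the chain that presents IL15, had 146, 207, 216 and 291 normalized counts in Control, in LPS, with WT PDZ and with mut PDZ, and LPS/Control was 1.42-fold (1.15 to 1.74), below the limit for a call.

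IL34, the other ligand of the CSF1 receptor, had 2 counts in Control, 19 in LPS and 8 in each peptide library. LPS/Control was 10.3-fold (2.48 to 90.9), and WT PDZ+LPS was called lower than LPS at 0.452, with an interval from 0.171 to 1.08 that includes 1. With mut PDZ+LPS, IL34 was at 0.526 of LPS (0.199 to 1.26) and not called, but its log2 fold change of -0.86 became -1.32, past the limit for a call, with the trend over length and GC content removed. CSF1R itself had 0, 0, 1 and 2 counts. IL2RG, the common gamma chain, had between 1 and 3, and IL12RB1, IL23R and IL2RB had 2 or fewer in every library. CSF2RB and IL12B, the partner of IL23A in IL-23, had no count in any library, where 3 counts, or 2.61 to 3.52 normalized counts, is the level that a count of 0 still allows. CSF2RA and CRLF2 were also listed at 0, but they lie in the pseudoautosomal regions, where 21 of 24 genes in the table had no count in any library and the highest count was 3, so their zeros carry no information on expression.

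**Figure D5:**
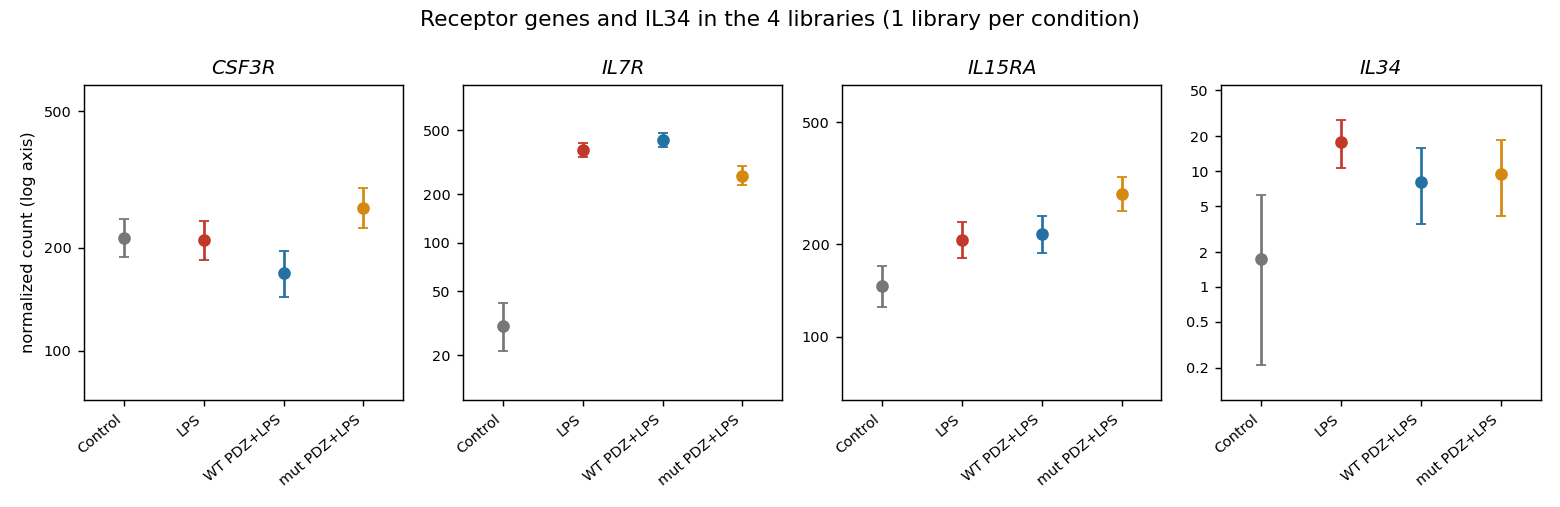
Normalized counts (log axes, a separate range in each panel) of CSF3R, IL7R, IL15RA and IL34 in the 4 libraries, with 95% counting intervals as bars. IL7R stands at 30.5 in Control and between 261 and 433 in the LPS-treated libraries, while CSF3R stays between 169 and 262.

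Signalling and decay factors that act on or through these cytokines were described from further lists. Of 13 JAK-STAT genes, JAK2, the kinase used by the CSF2 and CSF3 receptors, and STAT5A, a transcription factor downstream of them, were called higher in LPS/Control at 4.02-fold (3.70 to 4.36) and 4.08-fold (3.37 to 4.96), and 0 were lower, against 3.46% and 1.41% of all genes. Both were called in WT PDZ+LPS/Control too, where 3.28% of all genes were called higher. In mut PDZ+LPS/Control 4 were called higher: JAK2, STAT5A and the feedback inhibitors SOCS1, with 14 counts against 0, and SOCS3 at 2.32-fold (2.17 to 2.49), where 5.13% of all genes were called higher. SOCS2 alone of the 13 was called lower in WT PDZ+LPS/LPS, on 6 counts against 18, where 0.733% of all genes were. It was called higher in mut PDZ+LPS/WT PDZ+LPS, where 2.12% of all genes were. Of 7 factors that bind or control AU-rich mRNAs, 2 were called higher against Control in all 3 LPS-treated libraries and 0 lower. The shares of all genes called higher there were 3.46% in LPS, 3.28% with WT PDZ+LPS and 5.13% with mut PDZ+LPS. The 2 genes were ZC3H12A, an RNase that degrades cytokine mRNAs, and ZFP36L1, a decay factor that binds AU-rich elements. ZC3H12A had 773 normalized counts in Control and 13031 in LPS, and 11174 with WT PDZ+LPS and 14864 with mut PDZ+LPS, and LPS/Control was 16.9-fold (15.8 to 18.1). None of the 7 was called between LPS-treated libraries, where 0.635% to 2.14% of all genes were called in each direction.

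Beside the 8 cytokines, the neutrophil-attracting CXC chemokines and the IL-6 family were read in the same way. All 6 chemokines were called higher against Control in each LPS-treated library. The shares of all genes called higher were 3.46%, 3.28% and 5.13% in LPS, with WT PDZ and with mut PDZ. In the same order the chemokine median log2 fold changes were 4.63, 4.53 and 4.92, and CSF3 at 5.43, 5.30 and 5.88 lay above these medians. With the trend over length and GC content removed, the mut PDZ+LPS/Control values were 4.68 for the chemokine median and 5.54 for CSF3. Of 6 IL-6 family genes, IL6 and LIF were called higher in LPS/Control, where 3.46% of all genes were. In WT PDZ+LPS/Control, where 3.28% of all genes were called higher, 2 were, and 3 with the trend over length and GC content removed. CLCF1 had 386 normalized counts in WT PDZ+LPS against 198 in Control. In mut PDZ+LPS/Control, where 5.13% of all genes were called higher, IL6, LIF, CLCF1 (533 normalized counts against 198) and IL11 (21.1 against 6.09) were. IL11 was also called higher in mut PDZ+LPS than in LPS and in WT PDZ+LPS, on 18 counts against 4 in each. The shares of all genes called higher in these comparisons were 2.05% and 2.12%. In WT PDZ+LPS/LPS the median log2 fold change was -0.12 for the chemokines, -0.085 for the IL-6 family and -0.082 for the 8 cytokines. In mut PDZ+LPS/LPS these medians were 0.30, 0.56 and 0.24, and 0.072, 0.30 and 0.037 with the trend over length and GC content removed, and no test of these lists against each other was possible.

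The genes whose pattern over the 4 libraries lay nearest to each cytokine were found from the Euclidean distance between log2 values centred on their mean. For CSF1 they were PNRC1, HCAR2 and RELB, at distances from 0.065 to 0.098. RELB encodes an NF-kB subunit, and its normalized counts were 451, 1808, 1521 and 1920. For CSF3 they were the read-through symbol TMEM256-PLSCR3, CXCL5 and C11orf96, at 0.25 to 0.36. CXCL5, a neutrophil chemokine, had 78.3, 4196, 3861 and 4843 normalized counts. For CSF2 they were PTX3, LTB and IL1A, at 0.31 to 0.35, of which IL1A encodes interleukin-1 alpha. For IL32 they were MSC, DUSP8 and CFB, at 0.12 to 0.13, and for IL7 they were LINC00665, NR1I3 and DFNB31, at 0.11 to 0.18. With 4 libraries, many genes that differ mainly between Control and LPS lie close together on this measure.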

How the data were processed

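RNA from 4 BEAS-2B cultures was poly(A)-selected, made into directional libraries and sequenced in pairs. The authors removed adapters and poor bases, aligned them by TopHat (build hg19 in the submitters' processing notes) and deposited the raw counts of reads on each gene symbol. The counting tool, annotation and strand setting are not given in the sources used here. The study's methods name FPKM and geometric normalization, but the deposited values are whole counts, used here unscaled by length. Depth ran from 19682929 to 25155647 counts.

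Groups followed the labels. Counts were divided by median-of-ratios size factors (1.15, 1.06, 0.990 and 0.851 for Control, for LPS, with WT PDZ and with mut PDZ). Folds have exact 95% counting intervals, which cover counting error only since each condition had 1 library. Reads carry no molecular identifiers, so PCR copies of a molecule could not be told from separate molecules. A zero was taken as 3 counts per library for bounds. The length and GC correction subtracted lowess trends (span 0.3) over 12106 genes with a transcript in GENCODE 29. Alternatives were TMM (edgeR 4.0.16, R 4.3.3), total-count and upper-quartile scaling, no expression rule or one of 64 normalized counts, thresholds of 1.5-fold and 3-fold, a pseudocount of 5 and the correction. A correction by mean transcript length was added after seeing the data.

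The 8 genes and all lists were chosen with earlier results of these data known. All 8 were named, as were receptors and partner subunits, other list genes where called, and the 3 nearest genes of each of the 8 that averaged 16 normalized counts or more. The steps were tested on simulated data. Python 3.11.15 with pandas 2.3.3, scipy 1.17.1 and statsmodels 0.14.6 was used.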

Additional observations from a re-analysis of the deposited data

Results flagged for a closer look

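CSF1 and CSF3 went opposite ways in the 2 peptide libraries when each was set against LPS. CSF1 was at 0.910 of the LPS level in WT PDZ+LPS and at 1.09 in mut PDZ+LPS. CSF3 was at 0.913 in WT PDZ+LPS and at 1.36 in mut PDZ+LPS. All 4 counting intervals excluded 1, but each side is 1 library and the difference between the peptides was not tested against replicates. With the length and GC trend removed, the mut PDZ+LPS/LPS log2 fold change was 0.032 for CSF3. For CSF1 it was 0.13 with the longest transcript and -0.12 with the mean transcript length.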

How the results depend on the processing

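CSF1, CSF2, CSF3 and IL32 were called higher against Control under every alternative in all 3 LPS-treated libraries. Of 60 recounts of the 8 genes called, 53 stayed within 1.5 times the reported count and 7 did not. With no expression rule, mut PDZ+LPS/LPS had 1 gene called in place of 0 (IL23A, lower, on 3 counts) and mut PDZ+LPS/WT PDZ+LPS had 2 in place of 1. A rule of 64 normalized counts and a 3-fold threshold each left 0 in WT PDZ+LPS/LPS, 0 again in mut PDZ+LPS/WT PDZ+LPS, and a pseudocount of 5 left 0 in WT PDZ+LPS/LPS, where IL7 had been called. Of 324 recomputed log2 fold changes of single genes and their medians, 293 stayed within their error, 31 moved further and 0 called values reversed. Total-count scaling shifted the LPS/Control median over all genes to -0.13, with CSF1 at 1.88, and all genes called went from 460 higher and 187 lower to 388 and 274. With the length and GC correction, which also left out genes without a transcript length, the genes called in mut PDZ+LPS/LPS went from 274 higher and 254 lower of 13378 to 133 and 130 of 12331. No paired analysis was possible because each condition had 1 library, and for the same reason no library could be left out. Depth limits IL7, IL15, IL23A and TSLP, which had at most 28 counts in a library.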
